A study of Bos taurus with 252 samples.

Results

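The NF-kB pathway genes are 38 genes of the raw count table, chosen by name, out of 33282 genes counted in every whole blood library of 42 steers on 6 days. All 38 were among the 19056 genes that passed the filter on low counts. They comprise 25 activators of the pathway, 8 inhibitors and 5 genes with a dual role. The activators fall into receptor adaptors and kinases, the linear ubiquitin ligase, the TAK1 complex, the IKK complex with related kinases, and the NF-kB subunits themselves.

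Blood was drawn from 42 crossbred beef steers on 6 days, namely day 0, before administration, then days 3 and 7, and later days 14, 21 and 56. They were the sequenced part of a larger trial, 6 chosen at random from each group. In the 6 treatment groups, each of these steers had received a single subcutaneous antimicrobial, namely tulathromycin (TULA) or tildipirosin (TILD), both macrolides, oxytetracycline (OXYT), florfenicol (FLOR), enrofloxacin (ENRO), a fluoroquinolone, or ceftiofur (CEFT), a cephalosporin. The 6 negative control steers (NC) received none. All steers, NC included, shared an earlier history of tildipirosin, an implant, antiparasitics and vaccines at the start of backgrounding, and none was treated for disease during the trial. Each treatment occupied 1 pen, which also held untreated sentinel steers, and after day 0 the groups were always sampled in the same order, NC first and OXYT last. NC and ENRO libraries were all in sequencing lane 1, TULA in lane 2, CEFT and OXYT in lane 3, and FLOR and TILD were each spread over a pair of lanes. Pen, sampling order and treatment therefore cannot be told apart, nor can lane and treatment for CEFT, OXYT, TILD and TULA against NC. Steers were separate animals, so they are the replicates in every test.

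NF-kB proteins are transcription factors that switch on cytokine, chemokine and survival genes in leukocytes. In the canonical branch, receptors for microbial products or interleukin-1 recruit MYD88, the IRAK kinases and TRAF6, the TAK1 kinase then activates the IKK complex, and IKK marks the IkB proteins for destruction so that RELA, REL and NFKB1 dimers enter the nucleus. NFKBIA and TNFAIP3 are themselves switched on by NF-kB and close the circuit, while the non-canonical branch runs from MAP3K14 to NFKB2 and RELB and is held down by TRAF2, TRAF3 and the BIRC proteins.

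Libraries held 26073640 to 74110289 counts (median 43608836), with the lowest group median, 33575799, in TILD. Levels are given in CPM, the count of a gene scaled to the total of its library times a normalization (TMM) factor. They are compared between samples, never between genes. Of the marker lists, 9 of 10 neutrophil markers and all 8 monocyte, 10 T cell and 8 B cell markers passed the filter, and the neutrophil gene CSF3R had no row. In whole blood, fewer cells of a type and less RNA per cell cannot be told apart. Of the 38 genes, 4 swung widely between libraries of the same steer. BIRC2 ranged from 0 to 38.3 CPM and lay more than 4-fold below its median in 80 libraries, with 13 at 0, and REL did so in 26, NFKBIE in 22 and CYLD in 16. Why these genes swung was not tested, and their values are uncertain.

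Sampling day accounted for more of the variation of the NF-kB pathway genes than treatment did. The median share of variance was 17.9% for day, 7.17% for treatment and 22.4% for steer within treatment, against 8.36%, 7.27% and 29.7% over all genes tested. Each later day was compared with day 0 within steers by edgeR's quasi-likelihood test, and a gene was called at a Benjamini-Hochberg false discovery rate (FDR) of 0.05. On day 3, 9 NF-kB genes were higher and 14 lower, where 20.6% of all genes were higher and 18.3% lower. On day 7 the counts were 6 higher and 17 lower, against 24.1% and 19.8% of all genes. The day 14 counts were 14 higher and 17 lower, against 32.8% and 30%. Day 21 gave 14 higher and 16 lower, against 32.8% and 31.7%, and day 56 gave 12 higher and 14 lower, against 32.6% and 30.8%. Of the 38 genes, 10 were lower on all 5 days, 6 were higher on all 5 days, 2 (RNF31 and NFKBIE) were called on no day, and 2 (IKBKB and RELA) were called in both directions. These were 26.3%, 15.8%, 5.26% and 5.26% of the NF-kB genes, where 10.9%, 14.2%, 18.9% and 3.08% of all genes tested did the same.

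**Figure D1:**
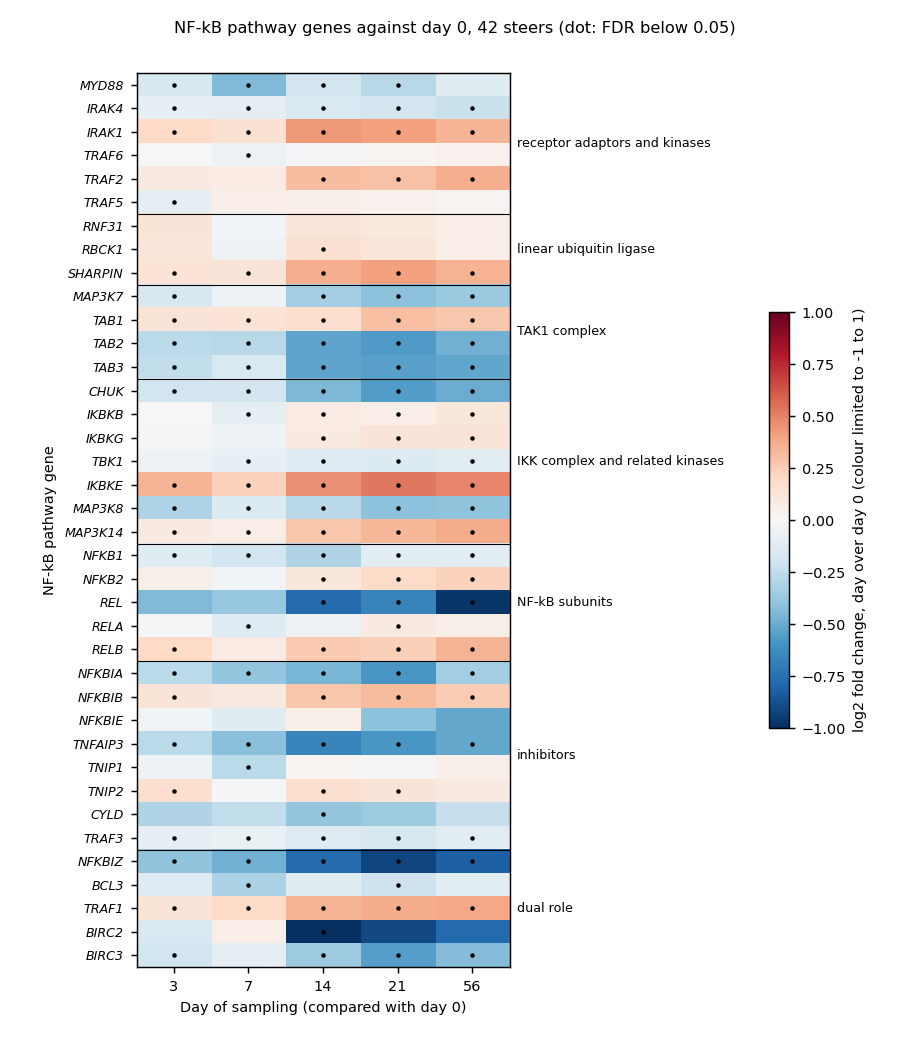
Log2 fold change of each NF-kB pathway gene (rows, ordered by role) on each later day over day 0 (columns), over 42 steers, with colour limited to −1 to 1 and a dot where the edgeR FDR was below 0.05. TAB2, TAB3, CHUK, NFKBIA, TNFAIP3 and NFKBIZ were lower in every column, and IRAK1, IKBKE and TRAF1 were higher in every column.

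Among the receptor adaptors and kinases, the paired IRAK kinases moved in opposite directions. IRAK1, which is phosphorylated after receptor engagement, had 104, 143 and 177 CPM (lowest, median and highest of 42 steers) on day 0 and 147, 193 and 248 CPM on day 14. The ranges overlapped, but IRAK1 was higher in 41 of 42 steers, by 0.43 ± 0.04 (log2 fold change ± SE; edgeR adjusted p = 2.72e-23). IRAK4, the kinase that acts upstream of IRAK1, was lower on all 5 days, reaching −0.22 ± 0.02 on day 56 in 36 of 42 steers (edgeR adjusted p = 1.58e-15). MYD88, the adaptor shared by most Toll-like receptors, was lower on 4 days with its largest difference, −0.44 ± 0.07, on day 7. TRAF2 was higher on days 14, 21 and 56 (0.31, 0.29 and 0.36), and TRAF6 and TRAF5 were each called on 1 day only. In the linear ubiquitin ligase, which attaches the chains that recruit IKK, the SHARPIN subunit was higher on all 5 days, by up to 0.41 ± 0.04 on day 21.

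In the TAK1 complex, TAB2 and TAB3, the ubiquitin-binding subunits, were lower on every day over all 42 steers, whereas TAB1 was higher on every day. In NC steers alone, TAB1 differed by 0 on day 3 and −0.15 on day 7, and was called on no day. In lane 1 steers TAB1 differed by −0.01 on day 7. TAB2 had 65, 88.8 and 116 CPM on day 0 and 41.2, 61.8 and 87.4 CPM on day 21. The difference was −0.57 ± 0.04, and TAB2 was lower in 41 of 42 steers (edgeR adjusted p = 2.92e-31). The kinase itself, MAP3K7, was lower on 4 days, by −0.41 ± 0.04 on day 21, while TAB1 reached 0.30 ± 0.03 on the same day.

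The IKK kinases also divided. CHUK, the IKK alpha subunit, had 24.7, 32.5 and 40.1 CPM on day 0 and 12.2, 22.6 and 33.9 CPM on day 21, and it was lower in all 42 steers (−0.56 ± 0.04, edgeR adjusted p = 1.42e-26). IKBKE, an IKK-related kinase, had 36.9, 55.9 and 89.2 CPM on day 0 and 45.5, 80.8 and 143 CPM on day 21, higher in all 42 steers (0.53 ± 0.04, edgeR adjusted p = 4.74e-30). The catalytic subunit IKBKB was lower on day 7 (−0.10 ± 0.03) and higher on days 14, 21 and 56 by at most 0.11, and the scaffold subunit IKBKG was higher on the same 3 days by at most 0.13. MAP3K14, the kinase of the non-canonical branch, was higher on all 5 days, from 0.07 on day 7 to 0.37 on day 56. MAP3K8, a kinase downstream of IKK, was lower on all 5 days, by up to −0.41 ± 0.06 on day 21.

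Of the NF-kB subunits, NFKB1 was lower on all 5 days and RELB higher on 4. NFKB1, the precursor of p50, had 113, 135 and 170 CPM on day 0 and 80.7, 113 and 151 CPM on day 14, a difference of −0.30 ± 0.04 that was seen in 37 of 42 steers (edgeR adjusted p = 2.06e-14). RELA, the main activating subunit, differed by −0.13 ± 0.03 on day 7 and by 0.09 ± 0.03 on day 21, and was not called on the other days. The non-canonical subunits RELB and NFKB2 reached 0.34 ± 0.05 and 0.23 ± 0.05 on day 56. REL was lower on days 14, 21 and 56, by up to −0.97 ± 0.24, but it averaged only 3.19 CPM on day 0 and is among the 4 unsteady genes.

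Among the 8 inhibitors, 3 were lower on all 5 days. NFKBIA, which encodes IkB alpha, had 76.4, 129 and 243 CPM on day 0 and 48.3, 86 and 130 CPM on day 21. The ranges overlapped, and the difference of −0.58 ± 0.06 was seen in 39 of 42 steers (edgeR adjusted p = 5.03e-17). TNFAIP3, the deubiquitinase A20, had 26.3, 43.5 and 78.5 CPM on day 0 and 19.6, 27.5 and 45.2 CPM on day 14, a difference of −0.66 ± 0.06 in 38 of 42 steers (edgeR adjusted p = 2.47e-22). TRAF3, which promotes turnover of MAP3K14, was lower by at most −0.16. NFKBIB, a second IkB protein, was instead higher on days 3, 14, 21 and 56, by up to 0.32 ± 0.04, and TNIP2 was higher on 3 days by up to 0.17.

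Among the dual role genes, NFKBIZ was lower on all 5 days. It encodes a nuclear IkB protein that both assists and restrains NF-kB. NFKBIZ had 20.3, 30.1 and 50.6 CPM on day 0 and 10.2, 15.7 and 23.7 CPM on day 21, and every one of the 42 steers was lower (−0.92 ± 0.06, edgeR adjusted p = 7.83e-37). TRAF1 was higher on all 5 days, by up to 0.39 ± 0.03 on day 56, and BIRC3, a survival gene that also restrains MAP3K14, was lower on 4 days, by −0.55 ± 0.05 on day 21. BIRC2 was lower on day 14 (−1.33 ± 0.44) with the swings described above.

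**Figure D2:**
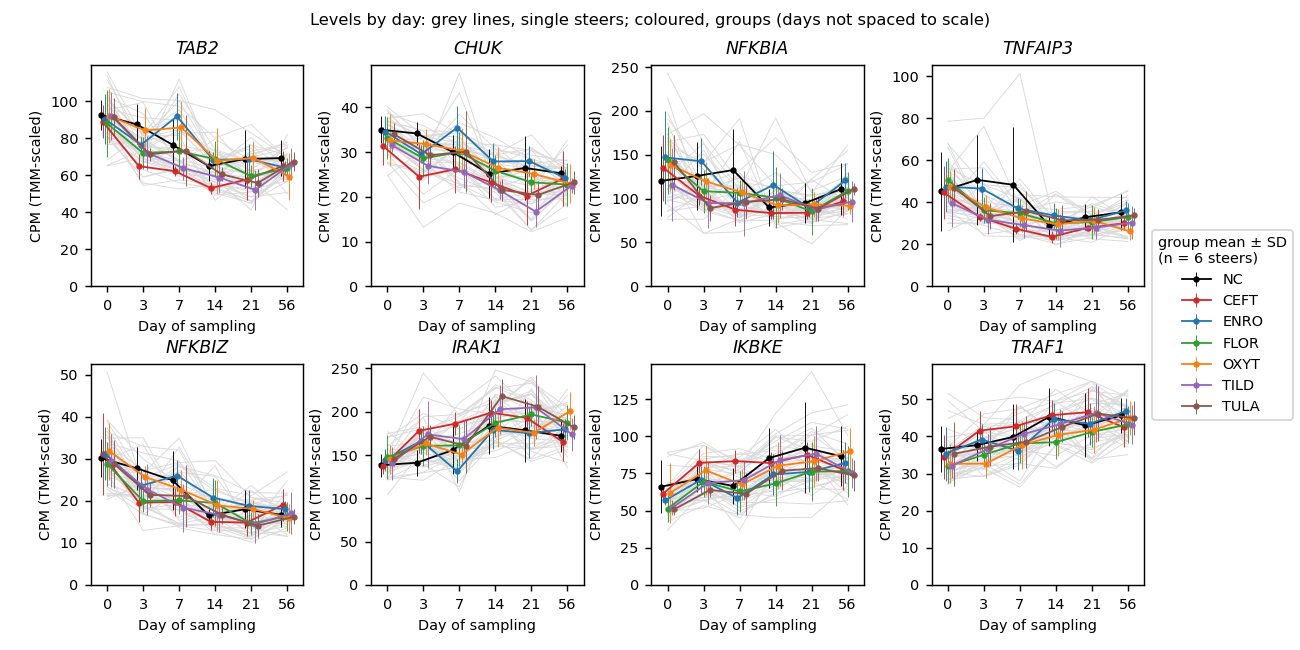
CPM of 8 NF-kB pathway genes by day of sampling, with single steers as grey lines and group means ± SD (n = 6) in colour. TAB2, CHUK, NFKBIA, TNFAIP3 and NFKBIZ lay lower on day 21 than on day 0 in each of the 7 groups, and IRAK1, IKBKE and TRAF1 lay higher.

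Signs of change were also counted group by group. Among the genes called against day 0, the change had the same sign in all 7 groups for 11 of 23 on day 3, 6 of 23 on day 7, 26 of 31 on day 14, 23 of 30 on day 21 and 23 of 26 on day 56. These shares were 47.8%, 26.1%, 83.9%, 76.7% and 88.5%, and those over all called genes were 57.1%, 48.8%, 72.8%, 73.3% and 78.8%. The shares lay farthest apart on day 7 and close together on day 21, and their differences were not tested. In the untreated NC steers alone, edgeR called 0 of the 38 genes on days 3 and 7 (0 and 4 at an unadjusted p under 0.05), 6 higher and 8 lower on day 14, 4 and 5 on day 21, and 8 and 9 on day 56. Over all genes, 0.0262% and 2.18% were called in NC on days 3 and 7, and 26%, 20.8% and 26.3% on the later days. NFKBIA and TNFAIP3 in NC lay above day 0 on day 3 (0.08 ± 0.19 and 0.17 ± 0.19), with neither called, whereas over all 42 steers both differed by −0.27. In NC, NFKBIA was called on no day and TNFAIP3 only on day 14 (−0.54 ± 0.20, edgeR adjusted p = 0.0407). TRAF3 was called lower in NC on days 14, 21 and 56. Other measures moved with day as well. The summed level of 9 neutrophil markers had a median of 2560 CPM on day 0 and 1360 on day 21, that of 8 monocyte markers 1270 and 942, and that of 10 T cell markers 1860 and 2510, with overlapping ranges. On day 21, 7 of 8 B cell markers were higher and 1 lower, and 2 of 8 NK and cytotoxic cell markers were higher and 4 lower. Of 10 immediate early genes 1 was higher and 6 were lower, and of 8 glucocorticoid response genes 1 was higher and 7 were lower. Within groups and days, the mean level of these immediate early genes had a Pearson's r of 0.61 with NFKBIA and 0.59 with TNFAIP3 over all libraries, and that of the glucocorticoid response genes 0.48 and 0.49, as a description. Hemoglobin genes took a median of 0.225% of counts on day 0 and 3.36% on day 21. Their part in the changes of the NF-kB genes was not tested. With only the 211 libraries under 5% hemoglobin, 11 genes were higher and 15 lower on day 21. Day 0 libraries held at most 4.04% hemoglobin, so this limit left out libraries of later days only. The share of all genes called in those libraries is not given.

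Genes around the pathway moved in both directions. Of 21 tested NF-kB target genes, 6 were higher and 11 lower on day 21 (median −0.25, against 0.02 over all genes tested). CXCL8, the neutrophil chemokine, differed by −0.99 ± 0.11 on that day, PTX3, a secreted pattern recognition protein, by −2.41 ± 0.28, and TNF by 0.37 ± 0.03. Of 21 receptors and receptor adaptors, 3 were higher and 15 lower on day 21 (median −0.31). IL1RAP, the shared chain of the interleukin-1 receptors, showed the largest difference (−1.55 ± 0.09), followed by CD14 (−0.82 ± 0.09), a monocyte protein that is also in the monocyte list, while TNFRSF13C, a B cell receptor for BAFF, was higher by 0.53 ± 0.06. Among 22 genes of the ubiquitin machinery and further regulators, 8 were higher and 10 lower (median −0.06), with ITCH at −0.67 ± 0.07 and UBB at 0.39 ± 0.04. On that day 32.8% of all genes were higher and 31.7% lower.

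Each treatment was then compared with NC on the same day by edgeR's quasi-likelihood test at an FDR of 0.1, in 36 comparisons of 6 against 6 steers. On day 0, before administration, 0 of 228 tests of NF-kB genes were called by edgeR or DESeq2 (10 at an unadjusted p under 0.05). There were 15 calls in all, every one on day 3 and with adjusted p between 0.0593 and 0.099, and 32 comparisons had none. All comparisons of a day share the same 6 NC libraries, so their results are not independent. FLOR and TULA had 0 calls on day 3 by edgeR, although 10 and 12 genes had an unadjusted p under 0.05. DESeq2 called 5 and 1 there, against 10.8% and 1.47% of all genes. After day 3 edgeR called 0 genes in every treatment. The comparison with the most genes at an unadjusted p under 0.05 there was TILD on day 21, with 12 (DESeq2 called 8), followed by ENRO on day 7 with 8 (DESeq2 called 3) and TILD on day 7 with 7 (DESeq2 called 1). For counts at an unadjusted p, and for DESeq2 after day 3, the share over all genes is not given.

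**Figure D3:**
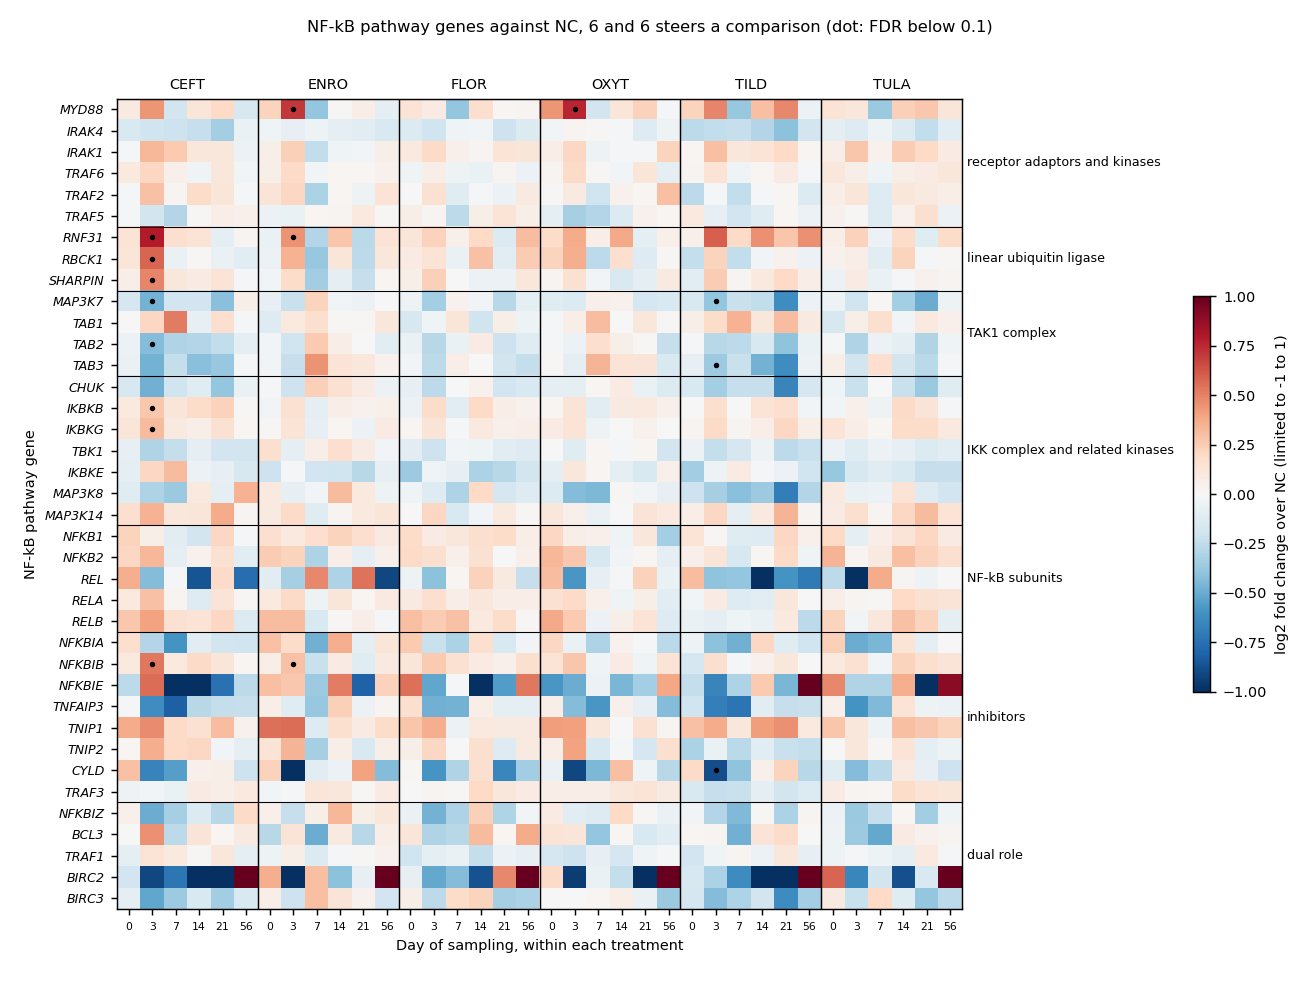
Log2 fold change of each NF-kB pathway gene (rows) over NC in each treatment on each day (columns), 6 against 6 steers, with colour limited to −1 to 1 and a dot where the edgeR FDR was below 0.1. The 15 dots all lie in the day 3 columns of CEFT, ENRO, OXYT and TILD, and the unsteady genes BIRC2, REL, NFKBIE and CYLD give most of the darkest cells.

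In CEFT on day 3, 6 genes were higher and 2 lower than in NC by edgeR, where 4.95% and 3.4% of all genes were called. DESeq2 called 14 higher and 8 lower there, and 23.8% of all genes. All 3 subunits of the linear ubiquitin ligase were higher. RNF31, its catalytic subunit, had 262, 329 and 640 CPM (lowest, median and highest) in CEFT and 176, 216 and 267 CPM in NC, overlapping at 1 end (0.79 ± 0.20, edgeR adjusted p = 0.0682). RBCK1 and SHARPIN differed by 0.58 ± 0.18 and 0.49 ± 0.13 (edgeR adjusted p = 0.099 and 0.0647). NFKBIB had 39.3, 48.2 and 63 CPM in CEFT and 32.1, 34.7 and 37.4 CPM in NC, with no overlap (0.53 ± 0.12, edgeR adjusted p = 0.0593). IKBKB also did not overlap (94.5 to 119 CPM against 80.1 to 90.3, 0.27 ± 0.07), and IKBKG differed by 0.32 ± 0.10. TAB2 was lower without overlap, with 54.5, 67.5 and 72.3 CPM in CEFT and 74.8, 85.6 and 99.8 CPM in NC (−0.43 ± 0.10, edgeR adjusted p = 0.0598), and MAP3K7 was lower by −0.47 ± 0.14. In every one of these genes called by edgeR in CEFT, the steer farthest from NC was Ceft4.

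In ENRO on day 3, 3 genes were higher and none lower, against 1.26% and 1.22% of all genes (DESeq2 called 9 higher and 2 lower, and 12.5% of all genes). MYD88 had 494, 572 and 713 CPM in ENRO and 293, 312 and 521 CPM in NC, where 1 NC steer reached into the ENRO range (0.71 ± 0.15, edgeR adjusted p = 0.069). RNF31 (275 to 344 CPM) and NFKBIB (39.1 to 47.1 CPM) did not overlap NC and differed by 0.45 ± 0.10 and 0.29 ± 0.07. In OXYT on day 3 the only call was MYD88, with 430, 630 and 723 CPM and the same overlap with that NC steer (0.76 ± 0.17, edgeR adjusted p = 0.0775), against 1.18% of all genes higher and 0.887% lower (DESeq2 called 3 higher and 1 lower, and 12.5% of all genes). MYD88 was already higher in OXYT on day 0, with 422, 618 and 840 CPM against 331, 436 and 684 CPM in NC (0.44 ± 0.20, edgeR adjusted p = 0.839). From day 0 to day 3 the mean went from 622 to 599 CPM in OXYT and from 458 to 354 CPM in NC, and the difference in change was not called (0.32 ± 0.23, edgeR adjusted p = 1). In TILD on day 3, 3 genes were lower and none higher, against 1.53% and 0.95% of all genes (DESeq2 called 6 higher and 7 lower, and 11.8% of all genes). MAP3K7 had 24.1, 28.8 and 31.3 CPM in TILD and 33.2, 37 and 41.8 CPM in NC, with no overlap (−0.39 ± 0.09, edgeR adjusted p = 0.08). TAB3 differed by −0.36 ± 0.09 with a small overlap, and CYLD, a deubiquitinase, by −0.89 ± 0.23 with the swings described above. For the 15 day 3 calls together, the change from day 0 to day 3, compared with that of NC as described further on, had the same sign in 15, an unadjusted edgeR p under 0.05 in 8 and an FDR under 0.1 in 0.

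**Figure D4:**
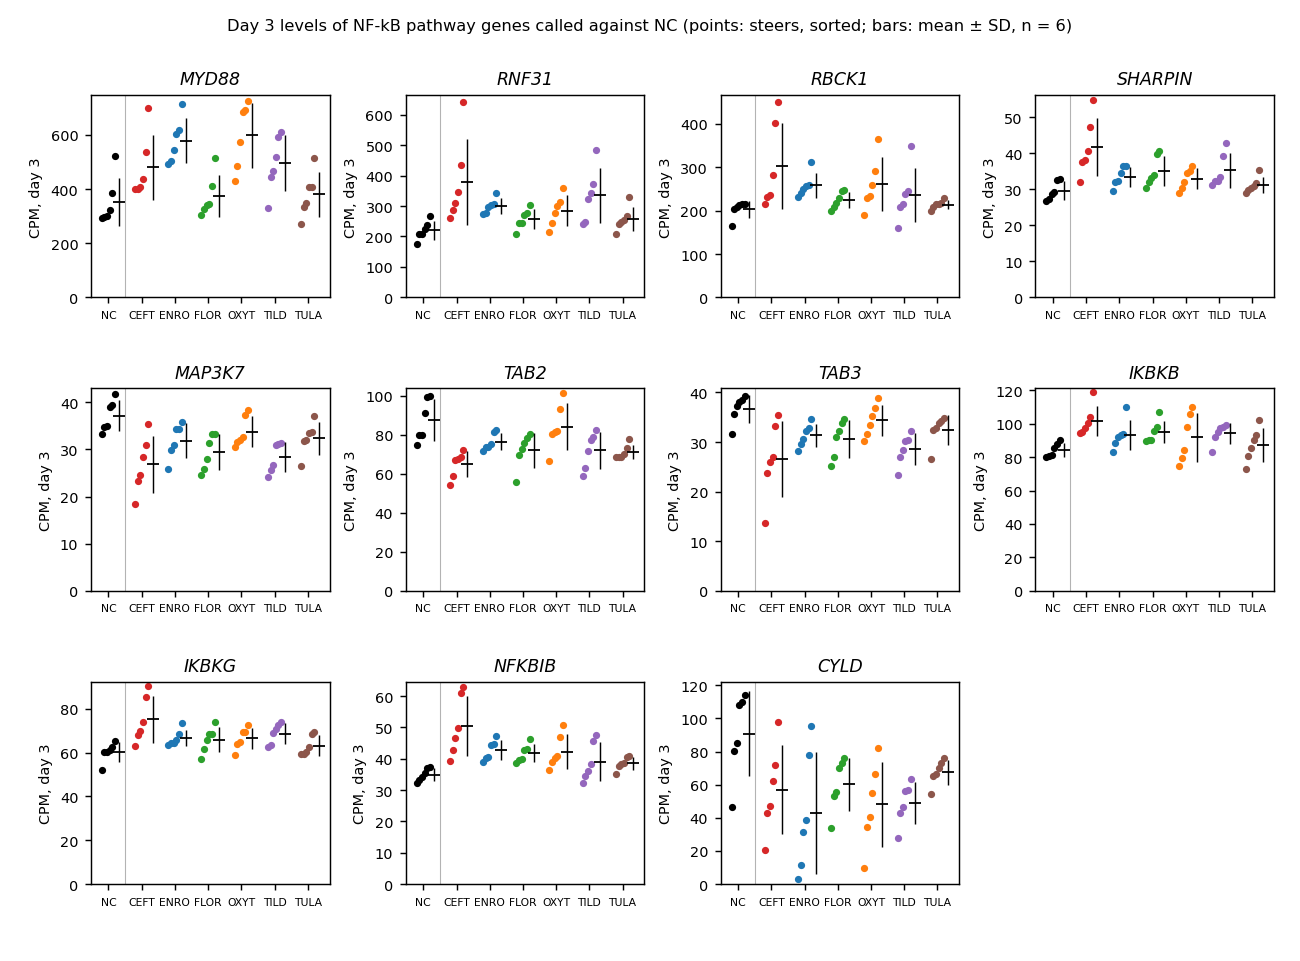
CPM on day 3 of the 11 NF-kB pathway genes called in any treatment, with each steer as a point and the mean ± SD (n = 6) beside it. MYD88 in ENRO and OXYT sits above most NC steers, whose highest value is 521 CPM, and MAP3K7 in TILD sits wholly below NC.

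Of TAB2, CHUK, NFKBIA, TNFAIP3, RELA, NFKB1 and REL, edgeR called only TAB2 in CEFT against NC on day 3. DESeq2 also called CHUK, TNFAIP3 and RELA in CEFT, CHUK and TNFAIP3 in TILD, CHUK in ENRO and TAB2 in TULA. NFKBIA ranged over the treatments from −0.50 ± 0.19 in TULA to 0.18 ± 0.19 in ENRO, and TNFAIP3 was below NC in all 6, from −0.68 ± 0.24 in TILD to −0.12 ± 0.24 in ENRO. RELA ranged from 0.03 ± 0.08 in TULA to 0.29 ± 0.10 in CEFT, and NFKB1 from −0.09 ± 0.06 in TULA to 0.10 ± 0.06 in ENRO. CHUK was below NC in all 6, from −0.48 ± 0.19 in CEFT to −0.10 ± 0.09 in OXYT. Among surrounding genes called on day 3, CXCL8 was lower in CEFT (−1.65 ± 0.41), IL1RAP was higher in OXYT (1.24 ± 0.28) and TLR2 was higher in ENRO (0.44 ± 0.11). The neutrophil gene S100A9 was higher in ENRO, OXYT and TILD (1.04, 0.91 and 0.85). The summed 9 neutrophil markers had medians of 3070, 2800 and 2490 CPM there and 1500 in CEFT, against 1640 in NC, and the part of this in the differences was not tested.

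The number of day 3 calls changed with the steers left out and with lane. In CEFT, the 8 calls fell to 0 without Ceft6, NC7, NC12, NC13 or NC15, to 1 without Ceft5, to 3 without Ceft3 or NC1 and to 4 without Ceft4, and rose to 13 without NC5 and 19 without Ceft8. In ENRO, the 3 calls fell to 0 without Enro5, Enro8, Enro10, NC7, NC12, NC13 or NC15 and to 1 without Enro6 or Enro9, and rose to 7 without NC5. In TILD, the 3 calls fell to 0 without Tild2, Tild5, Tild10, NC7, NC12, NC13 or NC15 and to 1 without Tild3. In OXYT, the single call was lost without Oxyt4, Oxyt5, Oxyt6, Oxyt9, NC1, NC7, NC12, NC13 or NC15, and the count rose to 3 without Oxyt1 and 2 without NC5. After adjustment of the counts for lane by ComBat_seq, 0 calls were left in CEFT, OXYT and TILD, none of which shares a lane with NC, so that the adjustment takes out lane and treatment together. ENRO and NC share lane 1, and there the 3 calls stood after ComBat_seq, whereas when lane entered the model of all day 3 libraries only MYD88 was called (0.71, edgeR adjusted p = 0.0404).

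The change from day 0 was also compared between each treatment and NC, with steer as block, at an FDR of 0.1. ENRO on day 7 had 6 NF-kB genes lower and none higher, against 5.14% and 4.31% of all genes. NFKBIA changed by −1.61, −0.40 and −0.20 log2 units (lowest, median and highest steer) in ENRO and by −0.12, −0.10 and 0.93 in NC, with no overlap (difference −0.78 ± 0.22, edgeR adjusted p = 0.0248). TNIP1, which works with A20, differed by −0.70 ± 0.19, NFKB2 by −0.57 ± 0.17, TRAF2 by −0.44 ± 0.14, MYD88 by −0.63 ± 0.23 and TNIP2 by −0.47 ± 0.16, with overlapping steers in each. In a fit of the ENRO and NC libraries of both days alone, edgeR called 0 genes of all tested, and these 6 had adjusted p from 0.343 to 0.54 with the same sign. In that fit the difference of MYD88 was −0.51, and it was −0.31 without Enro2 and −0.28 without NC7. That of NFKBIA was −0.69 in the same fit, −0.49 without Enro2 and −0.53 without NC7. Enro2 and NC7 were the lowest ENRO and highest NC steers for NFKBIA, with the next at −0.54 and 0.24. The summed neutrophil markers fell from a median of 3070 to 1280 CPM in ENRO and were 2200 and 1600 in NC. For MYD88, the difference in change from NC on day 7 was −0.63, −0.52 and −0.51 in OXYT, FLOR and TULA. For NFKBIA it was −0.54, −0.59 and −0.72 in these treatments, and for TNIP2 −0.22, −0.03 and 0.01. For NFKB2 it was −0.53, −0.16 and −0.25, for TNIP1 −0.34, −0.36 and −0.34, and for TRAF2 −0.22, −0.13 and −0.21. None of these was called, and these treatments share the NC libraries with ENRO. From day 0 to day 7, mean NFKBIA went from 135 to 87.4 CPM in CEFT and from 116 to 94.9 CPM in TILD. In NC it went from 120 to 133 CPM.

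In OXYT on day 56, NFKB1 was the only call, lower, against 0.882% of all genes lower and 1.38% higher. It changed by −0.86, −0.49 and −0.15 in OXYT and by −0.16, 0.09 and 0.17 in NC, a small overlap (difference −0.56 ± 0.12, edgeR adjusted p = 0.0115, and 0.204 in the fit of both groups alone). In TILD on day 21, CHUK was the only call, lower, against 2.74% lower and 0.488% higher. It changed by −1.37, −0.96 and −0.55 in TILD and by −1.11, −0.37 and −0.05 in NC, with wide overlap (difference −0.50 ± 0.15, edgeR adjusted p = 0.0852, and 0.553 in the fit of both groups alone).

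Over all 6 days together, day 0 included, limma called IRAK4 lower in CEFT (−0.23 ± 0.07, adjusted p = 0.0299), where 1.83% of all genes were lower and 1.59% higher. Steers overlapped on every day, while the lowest CEFT value of a day was 28.1 to 33.6 CPM. The medians of CEFT and NC were 57.7 and 58.4 CPM on day 0, 54.7 and 56.3 on day 3 and 50.4 and 55.1 on day 7. They were 51.7 and 52.5 CPM on day 14, 49.3 and 56.7 on day 21 and 54 and 50.5 on day 56. On day 0 IRAK4 in CEFT already differed from NC by −0.15 ± 0.15 (edgeR adjusted p = 0.979). With ComBat_seq the call was lost (−0.14, limma adjusted p = 1). In TILD, IRAK4 (−0.27 ± 0.07), CHUK (−0.30 ± 0.10) and TRAF3 (−0.18 ± 0.06) were lower, with limma adjusted p of 0.00481, 0.0474 and 0.0424, against 2.13% lower and 2.85% higher. IRAK4 in TILD already differed from NC by −0.26 ± 0.10 on day 0, before administration (49.7 ± 6 against 59.5 ± 6.3 CPM, SD, n = 6; edgeR adjusted p = 0.722). CHUK and TRAF3 in TILD each differed from NC by −0.15 on day 0 (± 0.08 and ± 0.10, edgeR adjusted p = 0.788 and 0.849). With RLE factors the calls of CHUK and TRAF3 were lost (limma adjusted p = 0.0571 and 0.0591), and with ComBat_seq all 3 were (0.296, 0.999 and 0.482).

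Within groups and days, some NF-kB genes rose and fell together in blocks, while most pairs were weakly related. After subtraction of the group-by-day means, 81 of the 703 pairs of NF-kB genes had a Pearson's r above 0.5 and 31 below −0.5 over all libraries, with a median of 0.06. These were 11.5% and 4.41% of pairs, against 1.09% and 0.517% of the pairs of all genes tested, whose levels and counting error are not matched to those of the NF-kB genes. MAP3K7, TAB3 and CHUK were the closest set (0.874 for MAP3K7 with CHUK), and SHARPIN ran opposite to them (−0.785 with MAP3K7). Among all genes tested, those most like NFKBIA were TNFAIP3 (0.775), TXNIP (0.768), TSC22D3 (0.752), NDEL1 (0.746) and PTAFR (0.726). Those most like TNFAIP3 were NFKBIA, FOSL2 (0.725), TXNIP (0.724), SOCS1 (0.688) and PREX1 (0.662). These correlations are descriptions, since the points share steers, libraries and depth.

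**Figure D5:**
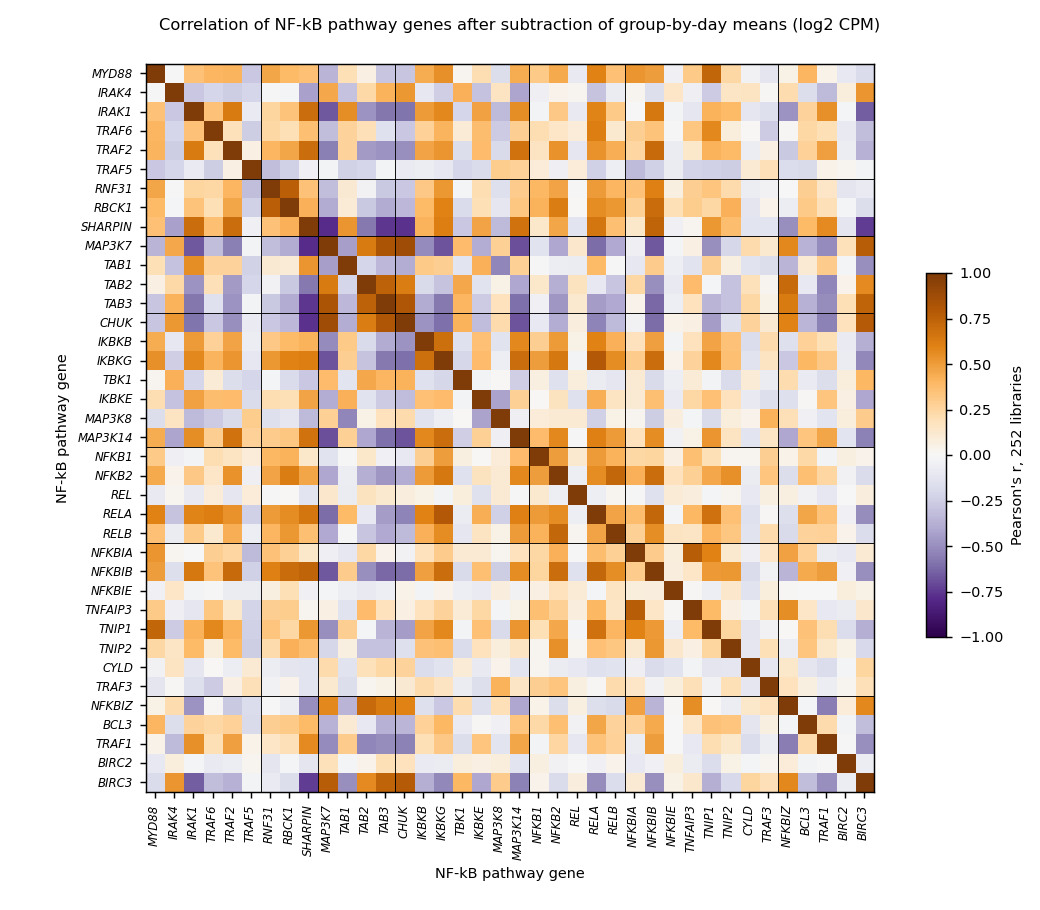
Pearson's r between each pair of NF-kB pathway genes over all libraries, on log2 CPM after subtraction of group-by-day means, ordered by role on both axes. MAP3K7, TAB2, TAB3, CHUK and BIRC3 form a block of high values and run opposite to SHARPIN, MAP3K14 and NFKBIB.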

How the data were processed

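RNA from PAXgene whole blood was sequenced as stranded mRNA libraries. The authors trimmed reads, aligned them with HISAT2 (2.1.1 per the submitters' processing notes) to ARS-UCD1.3 and deposited StringTie counts per gene, made with prepDE. The deposited counts were analysed without change in R 4.3.3. Genes with CPM above 0.2 in at least 12 libraries were kept and TMM factors computed over all libraries. edgeR 4.0.16 quasi-likelihood tests compared days (steer as block, all libraries), treatments with NC within a day (12 libraries) and changes from day 0 (steer as block, all libraries). In the designs over all libraries the dispersion trend came from every 15th gene by abundance. limma 3.58.1 (voom, within-steer correlation 0.359) tested effects over all days. Samples were grouped by the labels, and steers pair the days because they are the same animals. Alternatives used DESeq2 1.42.0, lane adjustment by sva 3.50.0, RLE factors, no filter, likelihood ratio tests and each steer left out.

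The 38 genes, the surrounding gene lists and the markers were chosen with earlier results of these data known. Named genes were the 3 called genes with the largest change in each direction per day, up to 6 called genes per treatment and day or change, up to 5 per treatment over all days, and always TAB2, CHUK, NFKBIA, TNFAIP3, RELA, NFKB1 and REL. Other genes of each role are given as counts or single values. One surrounding gene list is not reported here. On counts simulated for TILD against NC on day 3 with 19056 genes, 0% of genes changed by 0.5 on the log2 scale, 39.4% of those changed by 1 and 92.4% of those changed by 2 were called, and 6.45% of calls were false. Every simulated gene had the same dispersion, so these rates do not carry over to genes that vary less between steers. In the deposited counts, IKBKB in CEFT was called on day 3 at a difference of 0.27.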

Additional observations from a re-analysis of the deposited data

Results flagged for a closer look

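RBCK1 in the NC steers on day 3 had a lowest value of 163 CPM (NC13), set apart from the other 5 by a gap that passed Dixon's test. It was 1 of 30 groups examined, and chance sets off about 1 in 20.

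The change from day 0 differed from that of NC for 8 genes by the edgeR test of the difference. In ENRO on day 7 these were MYD88 (−0.63), TRAF2 (−0.44), NFKB2 (−0.57), NFKBIA (−0.78), TNIP1 (−0.70) and TNIP2 (−0.47). The others were NFKB1 in OXYT on day 56 (−0.56) and CHUK in TILD on day 21 (−0.50). None was called in a fit of the groups and days concerned alone.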

How the results depend on the processing

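Numbers of NF-kB genes called against day 0 changed with the steers used and the test. In lane 1 steers they were 1 higher and 0 lower on day 3, 1 and 3 on day 7, 9 higher on day 14, 7 higher on day 21 and 9 lower on day 56. Lane 2 gave 2 higher on day 3, and lane 3 gave 7 lower on day 3 and 8 higher on day 14. NC steers gave 0 and 0 on days 3 and 7, 6 and 8 on day 14, 4 and 5 on day 21, and 8 and 9 on day 56. The likelihood ratio test, which used the trended dispersion, gave 3 and 9 on day 3 and 2 and 10 on day 7. Without the replicate block, pairing the days of a steer, 11 were lower on day 7. Where only 1 direction is named for a day, the count in the other is not given here.

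Calls against day 0 reversed in sign 30 times over NC steers and the steers of each lane, never with a call there. In NC steers there were 10 of 23 on day 3, 8 of 23 on day 7 and 1 on each later day. In lane 1 steers there was 1 on day 3 (TRAF5), 5 on day 7 and 1 on day 14, in lane 3 steers 1 each on days 3 and 14, and in lane 2 steers 0. Among the genes named for their change or always described, those of day 3 were MYD88 in lane 3 (0.01) and, in NC steers, TNFAIP3 (0.17), SHARPIN (−0.06), MAP3K14 (0.00), NFKBIA (0.08) and NFKB1 (0.01). Those of day 7 were IRAK1 (−0.01), MAP3K8 (0.04), SHARPIN (−0.02) and TAB3 (0.05) in lane 1 and MAP3K8 (0.01), MYD88 (0.01), TNFAIP3 (0.07) and NFKBIA (0.17) in NC steers. On day 56 there was NFKB1 in NC steers (0.05).

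Against NC on days 3 to 56, DESeq2 called 26 for TILD, 24 for CEFT, 14 for ENRO, 6 for OXYT, 5 for FLOR and 2 for TULA. The share over all genes is not given for these totals. Without the filter CEFT had 4 and TILD 1, RLE gave FLOR 1, and the likelihood ratio test gave TILD 5. ComBat_seq by lane left 0 in CEFT, OXYT and TILD (0, 0 and 1 with the likelihood ratio test), and lane as a term left 0 in CEFT, OXYT and TILD and 1 in ENRO. With 1 steer left out on day 3, calls ran from 0 to 19 in CEFT, 0 to 7 in ENRO, 0 to 3 in OXYT and 0 to 3 in TILD.

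For the change from day 0, the fit with no replicate block, which does not pair the days of a steer, called 0 in ENRO, OXYT and TILD. RLE gave 1 in CEFT and 0 in TILD, and no filter gave 0 in TILD and 4 in ENRO, where MYD88 and TNIP2 were lost. The likelihood ratio test gave 6 for CEFT, 5 each for TULA and TILD and 3 each for OXYT and FLOR. The fits of both groups on both days alone, chosen after the data were seen, called 0 in ENRO on day 7, OXYT on day 56 and TILD on day 21, and with 1 steer left out 0 to 0, 0 to 0 and 0 to 1. Over all days, CEFT had 2 on days 3 to 56 and 0 with ComBat_seq, and TILD had 1 with RLE and 0 with ComBat_seq. The cause was not tested in any of these. On the counts simulated for TILD against NC on day 3, with 6 steers a group, 0% of changes of 0.5 on the log2 scale were called. That rate does not carry over to genes that vary less between steers.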
